A study of Mus musculus with 16 samples.

Results

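S100a4, S100a6, S100a8, S100a9, S100a10, S100a11, Lgals1, Lgals3, Anxa1 and Anxa2, 10 genes of the S100, galectin and annexin families, were followed in CD8 T cells from mouse kidney allografts and spleens. They were chosen by name from 32285 genes listed in any of the 9 CD8 T cell matrices, of which 16243 were listed in all 9, and levels were read in the 56585 of 72639 cells with a unique molecular identifier (UMI, 1 captured RNA molecule) of Cd8a or Cd8b1. Levels are counts per 1000000 UMIs of a library (CPM), summed over its CD8-positive cells. The cells had been sorted as viable CD45+ leukocytes, and no CD8 gate was described.

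Accepted grafts were DBA/2J kidneys in C57BL/6J (B6) recipients, a strain pair in which grafts survive without immunosuppressive drugs, taken at 1, 3 and 24 weeks with 3, 5 and 3 libraries. Spleens of accepting recipients were taken at the same times with 3, 5 and 3 libraries. Rejecting grafts were B6 kidneys in DBA/2J recipients at 1 week, with 2 kidney and 3 spleen libraries, and naive spleen gave 5 libraries. According to the study's methods all mice were male and both native kidneys were removed at transplantation. Ages were not given in the sources used here, and the labels give strain C57BL/6J and genotype WT for every sample, the rejecting recipients included. A library is 1 tag in the cell barcodes, taken here as 1 mouse, and p-values measure the spread between such libraries.

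Judged by accepted kidney and recipient spleen at 1 and 3 weeks, the 24-week libraries went against their labels. The study's measures of late grafts by other methods are not reported here, and the cause was not tested. In the 3 libraries labelled kidney, 46.2 to 49.2% of cells had a CD8 UMI and 0.594 to 4.62% of those met a list of effector genes (at least 2 of Gzmb, Prf1, Ccl5, Nkg7, Ccl4 and Ifng). In the 3 labelled spleen, the shares were 93.4 to 95.3% and 91.6 to 91.8%. The CD8 share was 83.5 to 90.1% and 96.3 to 97.03% in accepted kidney at 1 and 3 weeks. In recipient spleen it was 41.9 to 49.2% and 43.98 to 51.8% at those times. It was 94.97 to 97.6% in naive spleen and 100% in rejecting spleen. The CD8 share alone therefore does not go against the spleen label. The summed level of 10 kidney parenchyma genes averaged 0.27 CPM under the kidney label (0 to 2 UMIs per library). Under the spleen label it averaged 3.96 CPM (13 to 21 UMIs per library). At 1 and 3 weeks it averaged 2.01 and 6.44 CPM in accepted kidney and 0.37 and 0.09 CPM in recipient spleen. In rejecting kidney it averaged 0.70 CPM. The recipient spleen matrices of 1 and 3 weeks listed only 3 and 4 of the 10 genes, so their sums cover fewer genes. These samples are called the libraries labelled kidney or labelled spleen throughout, tests between groups that include them are given last, and where they enter an alternative fit over all 9 groups or a count within cell states, that is said. Depth ran from 153266 to 22782080 UMIs per library and from 1764 to 6069 UMIs in the median cell. T cell genes (Cd3d, Cd3e, Cd3g) summed to group means of 1632.5 to 4641 CPM, and any 2 of the 32 libraries shared at most 21 cell barcodes.

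S100 proteins are small, and most are calcium sensors that work as pairs. S100A4 and S100A6 bind cytoskeletal and membrane proteins, and S100A10 binds annexin A2 at the plasma membrane. S100A8 with S100A9 forms calprotectin, the abundant cytosolic complex of neutrophils. Galectins 1 and 3 are secreted lectins that bind galactose-containing glycans on T cell surface proteins, among them CD45, CD43 and CD7. Annexins bind membrane phospholipids when calcium rises. In CD8 T cells several of these genes, S100a4, S100a6, Lgals1 and Anxa2 among them, are known to be low in naive cells and high in effector and memory cells.

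Of the 10 genes, 6 lie on chromosome 3 within 2.96 Mb (GRCm38). S100a4 (chr3:90603771-90606045), S100a6 (chr3:90612882-90624181) and S100a8 (chr3:90668978-90670035) lie on the plus strand and S100a9 (chr3:90692632-90695721) on the minus strand, followed on the plus strand by S100a11 (chr3:93520488-93526287) and S100a10 (chr3:93555080-93564643). The others are Lgals1 (chr15:78926725-78930465, plus), Lgals3 (chr14:47367751-47386160, plus), Anxa1 (chr19:20373428-20390944, minus) and Anxa2 (chr9:69453620-69491795, plus). The promoters of the 4 members whose change between 1 and 3 weeks differed between graft and spleen are shown, since those members share that pattern. Each is the 250 bases before the RefSeq start site (GRCm38.p6), plus strand, 5′ to 3′.
S100a4, chr3:90603520-90603769: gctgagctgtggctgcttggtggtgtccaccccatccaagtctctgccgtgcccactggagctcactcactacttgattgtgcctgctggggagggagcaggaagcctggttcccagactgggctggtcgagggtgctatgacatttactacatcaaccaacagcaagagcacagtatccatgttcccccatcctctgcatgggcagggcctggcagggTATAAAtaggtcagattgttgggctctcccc
S100a6, chr3:90612644-90612893: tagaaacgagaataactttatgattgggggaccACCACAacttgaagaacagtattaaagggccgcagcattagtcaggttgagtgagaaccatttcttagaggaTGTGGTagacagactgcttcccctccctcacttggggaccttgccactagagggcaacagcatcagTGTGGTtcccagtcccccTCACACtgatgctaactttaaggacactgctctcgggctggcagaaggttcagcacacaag
S100a11, chr3:93520246-93520495: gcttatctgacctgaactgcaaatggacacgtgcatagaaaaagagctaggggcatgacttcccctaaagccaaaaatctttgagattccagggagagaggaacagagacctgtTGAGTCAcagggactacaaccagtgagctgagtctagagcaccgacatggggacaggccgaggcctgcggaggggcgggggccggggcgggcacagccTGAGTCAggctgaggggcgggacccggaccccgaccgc
Lgals3, chr14:47373610-47373859: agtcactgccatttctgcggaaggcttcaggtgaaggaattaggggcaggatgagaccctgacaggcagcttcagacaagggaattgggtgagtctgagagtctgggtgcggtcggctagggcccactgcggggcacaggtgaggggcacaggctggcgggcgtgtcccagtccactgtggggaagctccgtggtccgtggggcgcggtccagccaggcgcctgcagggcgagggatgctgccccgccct
Capitals mark matches, on either strand and without overlaps, to TCACAC (a T-box core, in 12.3% of 32851 mouse promoters of this length), TGTGGT (RUNX, 14.05%), TGANTCA (AP-1, 6.75%) and TATAAA (the box bound by TBP, 12.4%). S100a4 holds TATAAA from position -31 to -26 relative to its start, S100a6 holds 1 TCACAC and 3 matches to TGTGGT or its complement, S100a11 holds TGAGTCA from -136 and from -38, and no match stands in the Lgals3 window. In the 4 other members with an entry, TATAAA stood in S100a8, Anxa1 and Anxa2, TGAGTCA also in Anxa2, and the T-box and RUNX letters in S100a9. A match is a stretch of letters and was not tested as a binding site.

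S100a4, a regulator of cell motility, was among the most abundant of the members in graft CD8 cells. Accepted kidneys held 1801, 2389.9 and 1586 CPM at 1 week and 1711, 1930.1, 1715, 2009 and 1851 CPM at 3 weeks. Recipient spleens held 311, 449.6 and 629.9 CPM at 1 week, and 42.4, 35.5, 24.4, 46.8 and 22.2 CPM at 3 weeks. Every kidney library stood above every spleen library at both times, the spleens of the 2 times did not overlap, and the kidneys of the 2 times did. Naive spleens were lowest, with 4.42, 11.8, 11.3, 10.1 and 19.5 CPM. Ordered by group mean, accepted kidney at 1 week (1926 ± 416 CPM, SD, n = 3) and 3 weeks (1843 ± 132, n = 5) overlapped, rejecting kidney (815 ± 70.2, n = 2) stood apart below them, spleen at 1 week (464 ± 159.6, n = 3) overlapped rejecting spleen (217 ± 124, n = 3), and spleen at 3 weeks (34.3 ± 10.8, n = 5) stood above naive spleen (11.4 ± 5.4, n = 5) without overlap.

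S100a6, which binds annexins and tubulin-associated proteins, followed S100a4 closely. Its kidney levels were 1902, 2458 and 1981 CPM at 1 week and 2137, 2579, 2874, 2611 and 2553 CPM at 3 weeks. Spleens gave 394, 605 and 1152 CPM at 1 week, 136, 100.1, 88.5, 119 and 128 CPM at 3 weeks, and naive spleens 34.9 to 55.1 CPM. Kidney again stood above spleen in every library. Across all 32 libraries Pearson's r between S100a4 and S100a6 on the log2(CPM + 1) scale was 0.99 (0.99 over the 26 without those of 24 weeks), as a description over libraries that share tissue, depth and cell state. In single cells of spleen at 1 week, 78.7% of those with an S100a4 UMI and 11.3% of those without had an S100a6 UMI, and in naive spleen the shares were 48.7% and 2.24%.

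**Figure D1:**
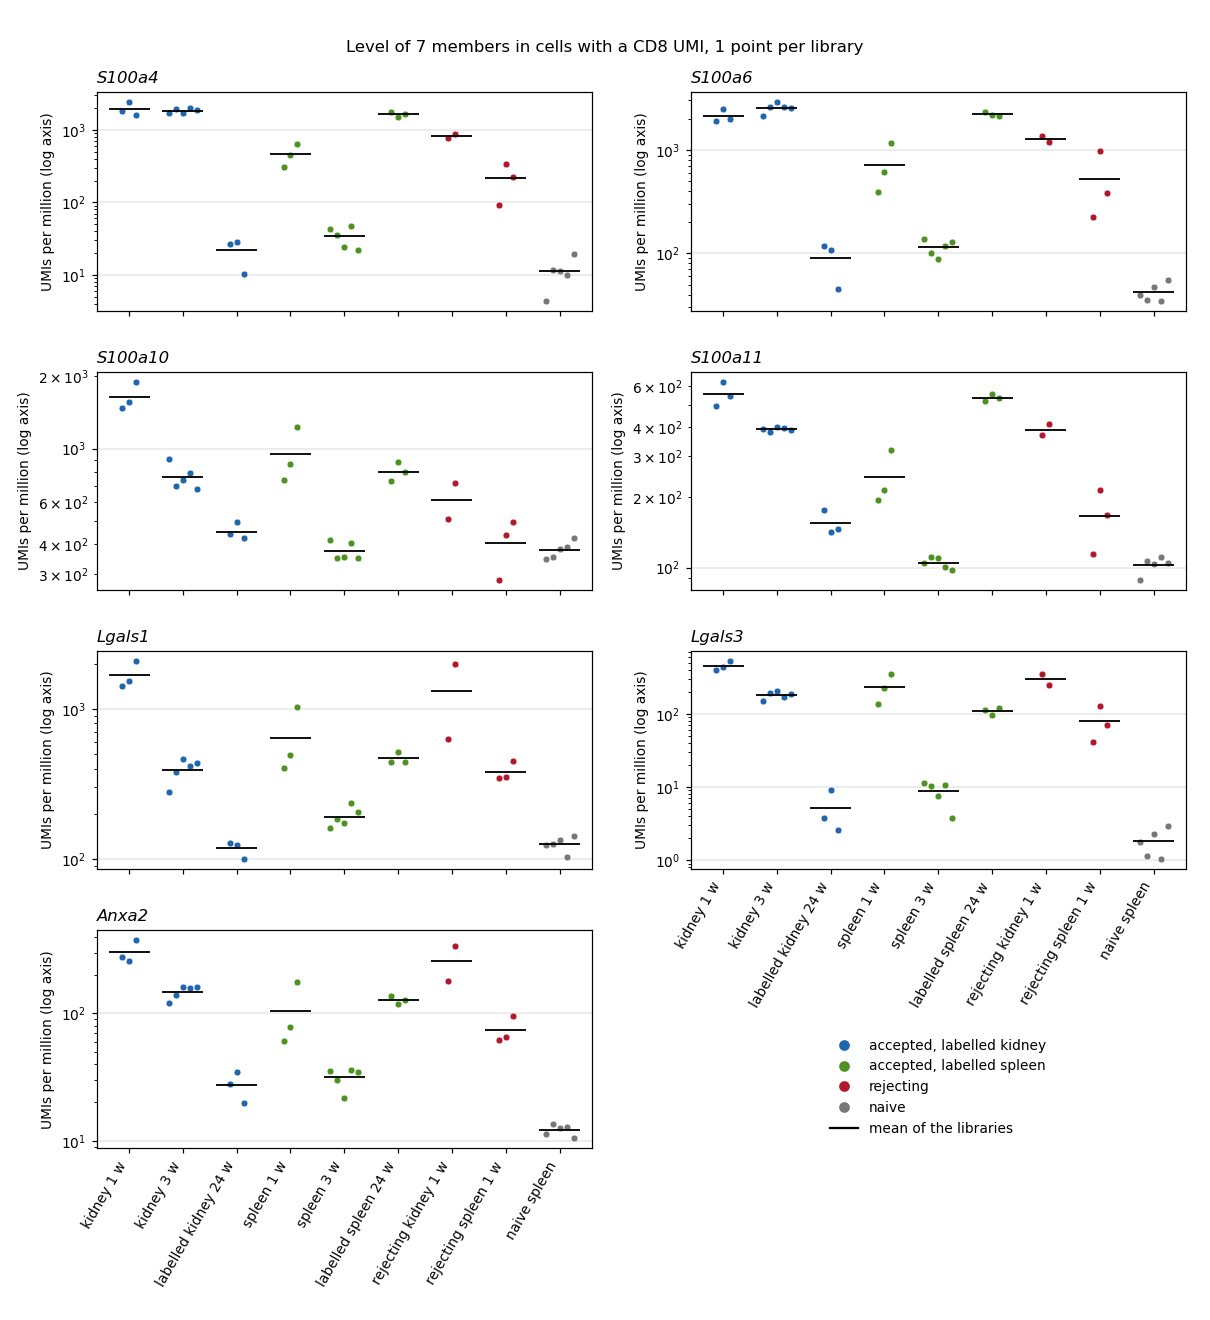
Levels of S100a4, S100a6, S100a10, S100a11, Lgals1, Lgals3 and Anxa2 (CPM, log axis) in every library of the 9 CD8 groups, with a point for each library and a black line for the group mean. S100a4 sat at 1586 CPM or more in all 8 accepted kidney libraries of weeks 1 and 3 and at 46.8 CPM or less in the 3-week spleens, and the 24-week groups stand in the opposite order to their labels at 1 and 3 weeks.

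The first comparison asked how the members changed within accepted grafts between 1 and 3 weeks. Of the 10 members, 8 passed the filter on low counts, and 7 changed: 6 fell and S100a6 rose, against 74.8% of 11638 genes called either way, 21.2% called lower and 53.6% called higher. The median log2 change of the 8 was -1.07, beside 0.41 over all genes tested, so values are to be read against that shift. In sums over cells, fewer cells of a type and less RNA per cell cannot be told apart. The fall was largest for Lgals1, galectin-1, which held 1416, 1539 and 2089 CPM at 1 week and 281, 381, 461, 417 and 435 CPM at 3 weeks. No 3-week library reached the 1-week range, and the fold was 4.26 lower (log2 -2.09, SE 0.14, adjusted p = 9.43e-09). Lgals3, galectin-3, fell from 397, 434 and 533 CPM to 151, 194, 207, 169 and 190.1 CPM (log2 -1.32, SE 0.11, adjusted p = 5.97e-08), also without overlap.

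Transcripts of both partners of the annexin A2 complex fell in the same interval. S100a10, the light chain, held 1476, 1560.0 and 1898 CPM at 1 week and 907, 698, 743, 790.5 and 681 CPM at 3 weeks, a 2.15-fold fall (log2 -1.11, SE 0.10, adjusted p = 1.77e-07). Anxa2 held 279, 257 and 376 CPM and then 121, 138, 161, 157 and 163 CPM, a 2.05-fold fall (SE 0.12 on the log2 scale, adjusted p = 1.87e-06). In both genes all 3-week libraries lay below all 1-week libraries. S100a11, another annexin partner, fell less, from 496, 629 and 543 CPM to 395, 382, 401, 397 and 388 CPM (log2 -0.50, SE 0.08, adjusted p = 4.85e-05). Anxa1, the ligand of formyl peptide receptors, was near the detection limit at 1.91 to 3.49 CPM and then 0.528 to 1.38 CPM (log2 -1.35, SE 0.29, adjusted p = 6.67e-04).

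S100a4 and S100a6 did not share the fall on this scale. S100a4 did not pass the test (log2 -0.06, 95% interval -0.28 to 0.16, adjusted p = 0.62). S100a6 was called higher (log2 0.27, SE 0.10, adjusted p = 0.027), below the median of all genes, and the call did not survive scaling: with trimmed-mean (TMM) factors its log2 change was -0.12 (adjusted p = 0.37) and S100a4 was called lower at -0.46 (adjusted p = 0.0054). TMM also turned the split of all genes from 6235 higher and 2469 lower to 4078 and 4123, while Lgals1, Lgals3, S100a10, S100a11, Anxa1 and Anxa2 stayed called lower under every alternative run. Without dividing cells S100a6 was at 0.08 (adjusted p = 0.50, the highest of 15 alternatives), and its call was also lost without the first (0.20) or the third (0.23) 1-week library, without the third (0.22) or the fourth (0.26) 3-week library and with all 9 groups fitted together, those of 24 weeks included (adjusted p = 0.35). S100a8 and S100a9 did not pass the filter in kidneys, with at most 0.93 and 1.27 CPM.

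In recipient spleens the same interval brought a fall of all 9 members that passed the filter, against 17.4% of 9468 genes called lower and 49.3% called either way, and their median log2 change was -1.75 beside 0.17 for all genes. With TMM factors all genes split into 2052 higher and 2273 lower, from 3020 and 1649, and the 9 members stayed called lower. Lgals3 fell most, from 137, 223 and 350 CPM to 11.5, 10.5, 7.61, 10.7 and 3.78 CPM, 26.3-fold (log2 -4.72, SE 0.27, adjusted p = 1.50e-09). S100a4 fell 13.5-fold (log2 -3.76, SE 0.20, adjusted p = 7.70e-10) and S100a6 6.29-fold (log2 -2.65, SE 0.22, adjusted p = 6.44e-08). Neither gene's 3-week libraries came near the 1-week range. Lgals1 (log2 -1.75), Anxa2 (-1.76), S100a10 (-1.33) and S100a11 (-1.22) fell by smaller amounts. S100a8 (log2 -1.17, adjusted p = 0.0155) and S100a9 (-1.35, adjusted p = 0.00452) were called too, but their libraries overlapped and DESeq2 did not call them (adjusted p = 0.204 and 0.132, with highest values of 0.204 and 0.152 over 15 alternatives).

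The test of the difference in change between graft and spleen separated the members. S100a4, S100a6, Lgals3 and S100a11 kept more of their level in kidney, 4 of 10 tested, against 24.3% of 11895 genes called in that direction, 33.7% either way and 9.48% in the other direction. The differences were 3.69 for S100a4 (log2, SE 0.27, adjusted p = 1.01e-09), 2.92 for S100a6 (SE 0.29, adjusted p = 1.45e-07), 3.40 for Lgals3 (SE 0.33, adjusted p = 9.10e-08) and 0.72 for S100a11 (SE 0.16, adjusted p = 0.00149), beside a median of 0.23 over all genes. TMM factors moved the split of all genes from 2885 higher and 1128 lower to 1818 and 1848 and kept these 4 calls. Lgals3 and S100a11 fell in both tissues and further in spleen, whereas S100a4 and S100a6 fell in spleen and were not called lower in the graft, except S100a4 with TMM factors and with DESeq2 (-0.47). The remaining members did not pass: Lgals1 at -0.34 (95% interval -0.92 to 0.24), S100a10 at 0.23 (-0.12 to 0.57), Anxa2 at 0.72 (0.08 to 1.36, adjusted p = 0.092), Anxa1 at 0.92 (-0.31 to 2.14), and the calprotectin pair at 1.65 (-0.18 to 3.48) for S100a8 and 0.92 (-0.92 to 2.75) for S100a9. With a block on the number in the library tags Lgals1 (-0.46), Anxa2 (0.58) and S100a8 (1.79) passed as well. Without cells holding any UMI of a dividing gene S100a11 lost its call (0.20, adjusted p = 0.236). Lgals1 then gained one in the opposite direction (-0.94, adjusted p = 0.00468), as it did without the third spleen library of 1 week (-0.87). Anxa2 passed without the third kidney library (0.91) or the first (0.99) or second (0.89) spleen library of 1 week, and S100a8 without the fourth spleen library of 3 weeks (2.23).

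**Figure D2:**
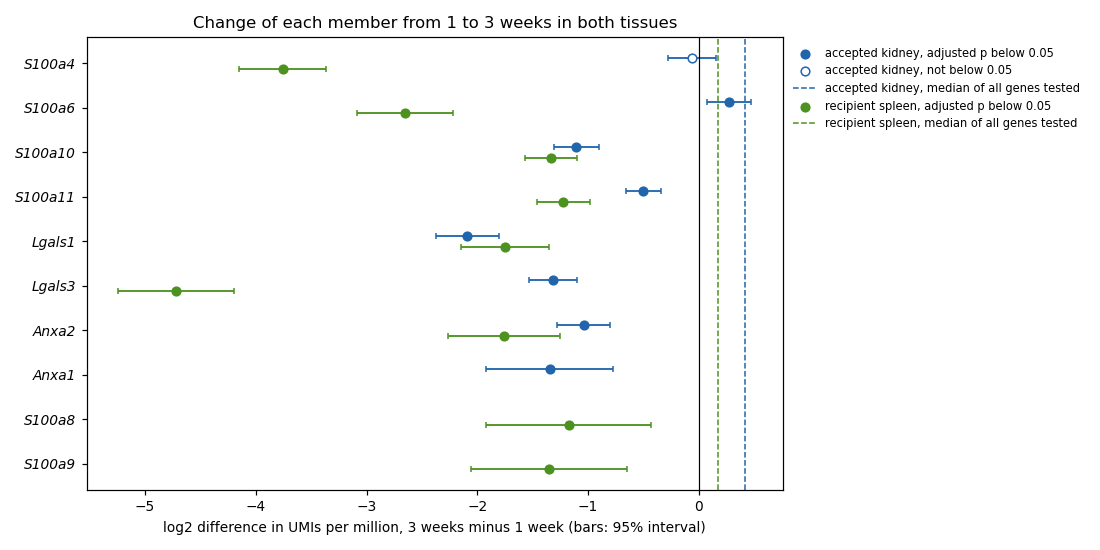
Log2 change from 1 to 3 weeks of each tested member in accepted kidney and in recipient spleen, with points for the edgeR estimate (open where not called), bars for its 95% interval and dashed lines for the median of all genes tested. S100a4 was at -0.06 in kidney and -3.76 in spleen, while Lgals1 was at -2.09 and -1.75; the small S100a6 value in kidney, 0.27, turns to -0.12 with TMM factors.

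Between tissues at 1 week, 7 of the 10 members tested were higher in kidney than in spleen, against 30.0% of 11133 genes called higher and 49.4% either way, and S100a8 and S100a9 were lower, against 19.4% called lower. That pair was at 0.53 and 1.19 CPM or less in kidney and passed the filter on low counts through the spleen libraries. Its direction was therefore fixed by the filter, and its calls are not read as a result. S100a4 was 4.15-fold higher (log2 2.05, adjusted p = 1.71e-05), S100a6 2.94-fold, Anxa2 2.86-fold, Lgals1 2.62-fold, S100a11 2.28-fold, Lgals3 1.92-fold and S100a10 1.74-fold. In each of the 7, every kidney library lay above every spleen library; the Lgals3 call was lost with DESeq2 (adjusted p = 0.0639, the highest of 14 alternatives), and Anxa1 did not pass (log2 -0.12, 95% interval -0.75 to 0.52) but was called lower over all cells of the matrices (-0.76, adjusted p = 0.0195, with up to 0.936 over 14 alternatives). At 3 weeks the same 7 of 9 tested were higher in kidney, against 48.6% of 10619 genes called higher. S100a4 was then 53.6-fold higher (log2 5.74, SE 0.13, adjusted p = 8.87e-18), S100a6 22.3-fold and Lgals3 20.2-fold, whereas Anxa2 was 4.69-fold, S100a11 3.75-fold, Lgals1 2.06-fold and S100a10 2.03-fold higher. The pair S100a8 and S100a9 was lower in kidney, against 16.8%, with 0.93 CPM or less of S100a8 in every kidney and 3.39 CPM or more in every spleen. It again passed the filter through the spleen libraries, so its direction was fixed by the filter. TMM factors moved the splits of all genes from 3335 higher and 2160 lower to 2818 and 2838 at 1 week and from 5166 and 1781 to 3238 and 2989 at 3 weeks, with 7 members higher and 2 lower each time.

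Spleens of recipients 1 week after transplantation differed from naive spleens in all 9 members tested, each higher, against 21.1% of 10160 genes called higher, 36.5% lower and 57.6% either way. All genes split into 2142 higher and 3709 lower, and into 2806 and 2602 with TMM factors, where the 9 calls stood. The B cell list summed to 395 to 839 CPM in CD8 cells of 1-week spleen and 27.9 to 55.6 CPM in those of naive spleen. The part of B cell RNA in these calls was not tested. Lgals3 was at 1.03 to 2.94 CPM in naive spleen and rose 130-fold (log2 7.03, SE 0.31, adjusted p = 2.78e-11). Lgals3, S100a8 and S100a9 passed the filter on low counts through the 1-week spleens. Their direction was therefore fixed by the filter, and their calls are not read as a result. S100a4 was 41.5-fold and S100a6 16.9-fold higher, then Anxa2 8.84-fold, Lgals1 5.11-fold, S100a10 2.50-fold and S100a11 2.38-fold. Naive levels of Lgals3, S100a4, S100a6, Anxa2 and S100a11 did not exceed the highest in B-list cells of naive spleen (at least 2 genes of a B cell list and no T cell gene), which held 13.1 to 37.0 CPM of Lgals3 and 8.69 to 22.1 CPM of Anxa2. S100a9 (log2 2.47) and S100a8 (1.90) were called higher, at 4.01 and 3.91 without the first naive library, and were not called by DESeq2 (adjusted p = 0.365 and 0.323, the highest of 15 alternatives each). By 3 weeks S100a10 (351 to 415 CPM, naive 346 to 423 CPM) and S100a11 (97.4 to 111 CPM, naive 88.4 to 111 CPM) overlapped naive spleen, while every 3-week library still stood above every naive one for S100a4, S100a6, Lgals1, Lgals3 and Anxa2. That last contrast was read from the library values and was not tested across genes.

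CD8 cells of rejecting kidneys differed from those of accepted kidneys at 1 week in 7 of 10 members: 5 were lower, against 10.4% of 12222 genes called lower and 58.1% either way, and 2 were higher, against 47.7% called higher, with a median over all genes of 0.68. All genes split into 5831 higher and 1274 lower, and into 3294 and 3111 with TMM factors, which called a 6th member, Anxa2, lower (log2 -0.90, adjusted p = 0.0332). S100a10 was at 507 and 717 CPM, below all 3 accepted libraries (log2 -1.43, SE 0.21, adjusted p = 5.80e-04). S100a4 was at 765 and 865 CPM (log2 -1.24, SE 0.21, adjusted p = 0.00123), and S100a6 at 1347 and 1176 CPM (log2 -0.74, adjusted p = 0.00742), again below all accepted libraries. S100a11 (log2 -0.51, adjusted p = 0.0325) and Lgals3 (-0.60, adjusted p = 0.038) were called lower as well. S100a11 lost the call without the second (-0.41) or the third (-0.52) accepted library or the first rejecting library (-0.43), with adjusted p up to 0.127 over 12 alternatives, and Lgals3 without any 1 of the accepted libraries (-0.69, -0.63 and -0.47) or the second rejecting library (-0.37), with adjusted p up to 0.131. S100a8, at 4.1 and 4.6 CPM, and S100a9, at 14.9 and 1.15 CPM, were the members called higher. In accepted kidney S100a8 was at 0.53 CPM or less and S100a9 at 1.19 CPM or less. Both passed the filter through the rejecting libraries, so their direction was fixed by the filter. S100a8 lost its call with all 9 groups fitted together (3.56, adjusted p = 0.0707, the highest of 11 alternatives), and S100a9 was at 0.70 without the first rejecting library (adjusted p = 0.64, the highest of 8 alternatives). In these recipients donor and recipient strains were exchanged along with the outcome, so strain and rejection cannot be told apart.

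Lgals1 did not differ by the test (log2 -0.36, 95% interval -1.17 to 0.44, adjusted p = 0.48) but was called lower by DESeq2 (-1.04, adjusted p = 0.0375, with 8.66e-05 to 0.755 over 12 alternatives), and the pair of rejecting libraries stood apart, at 629 and 1984 CPM against 1416 to 2089 CPM in accepted kidneys. Without the second of them Lgals1 was called lower (log2 -1.42, adjusted p = 8.66e-05), and without the first it was at 0.24 (adjusted p = 0.34). Cells with at least 2 of 5 dividing genes (Mki67, Top2a, Birc5, Stmn1, Pclaf) made up 14.5% of the first and 65.4% of the second library. Within cells of the effector list Lgals1 was at 660 and 2055 CPM. That list does not leave out dividing cells, so the dividing share was not held equal. Anxa2 (179 and 338 CPM) showed the same split and did not pass (log2 -0.23, adjusted p = 0.50), but was called lower with TMM factors (given above), by DESeq2 (-0.91, adjusted p = 0.0114) and without the second rejecting library (-0.77, adjusted p = 0.00952), with up to 0.895 over 12 alternatives.

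Cell state moved with the tissue and time, so the members were read within states. Effector-list cells made up 70.3 to 77.2% of CD8 cells in accepted kidney at 1 week and 96.9 to 98.3% at 3 weeks, and 8.21 to 16.6% and 3.11 to 3.96% in spleen at those times. Cells of a naive list (at least 2 of Ccr7, Lef1, Tcf7 and Klf2) made up 44.3 to 58.8% and 57.5 to 61.2% in the same spleens and 64.3 to 71.0% in naive spleen. In the 12 libraries with 20 cells or more of both lists, S100a4, S100a6, S100a11 and Lgals1 were higher in effector-list cells in 12 of 12, S100a10 and Lgals3 in 11, and Anxa2 in 10. Median ratios were 32.9 for S100a4, 20.1 for S100a6, 14.3 for Lgals3, 6.24 for Lgals1, 5.88 for Anxa2, 2.47 for S100a11 and 2.22 for S100a10. For S100a8 and S100a9 the effector-list cells were higher in 6 of 12. Of these libraries 1 was labelled kidney at 24 weeks, and without it the counts were 11 of 11 for the first 4 genes and 5 and 6 of 11 for the pair.

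Within effector-list cells alone galectin-1 in grafts showed a gap as wide as in all CD8 cells: Lgals1 was at 1545, 1610 and 2159 CPM at 1 week and between 279 and 463 CPM in the 5 libraries at 3 weeks. S100a10 stood at 1512, 1561 and 1866 CPM and then between 681 and 910 CPM in these cells. Neither gene's ranges overlapped. The effector list does not leave out dividing cells, whose share fell between the times, as given below. S100a4 in spleen effector-list cells at 1 week was at 1886, 1571 and 2192 CPM, overlapping kidney effector-list cells at 1 week (1779 to 2670 CPM), with 1 of 3 libraries below them. At 3 weeks the 3 spleen libraries with 20 to 25 such cells gave 940, 239 and 317 CPM of S100a4, against 1724 to 2018 CPM in kidney. Lgals3 in effector-list cells was higher in spleen (824, 728 and 1170 CPM) than in kidney (433, 433 and 529 CPM) at 1 week, opposite to the order in all CD8 cells. These are values without a test across genes.

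Dividing-list cells held more Lgals1 than effector-list cells of the same library in 13 of 15 libraries (median ratio 1.27, range 0.83 to 1.70) and more Anxa2 in 10 of 15, but more S100a4 in only 4 of 15 (median ratio 0.90). Without the libraries of 24 weeks the counts were 11, 9 and 4 of 13. The dividing share went from 25.4 to 50.9% of CD8 cells in kidney at 1 week to 0.647 to 1.40% at 3 weeks.

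**Figure D3:**
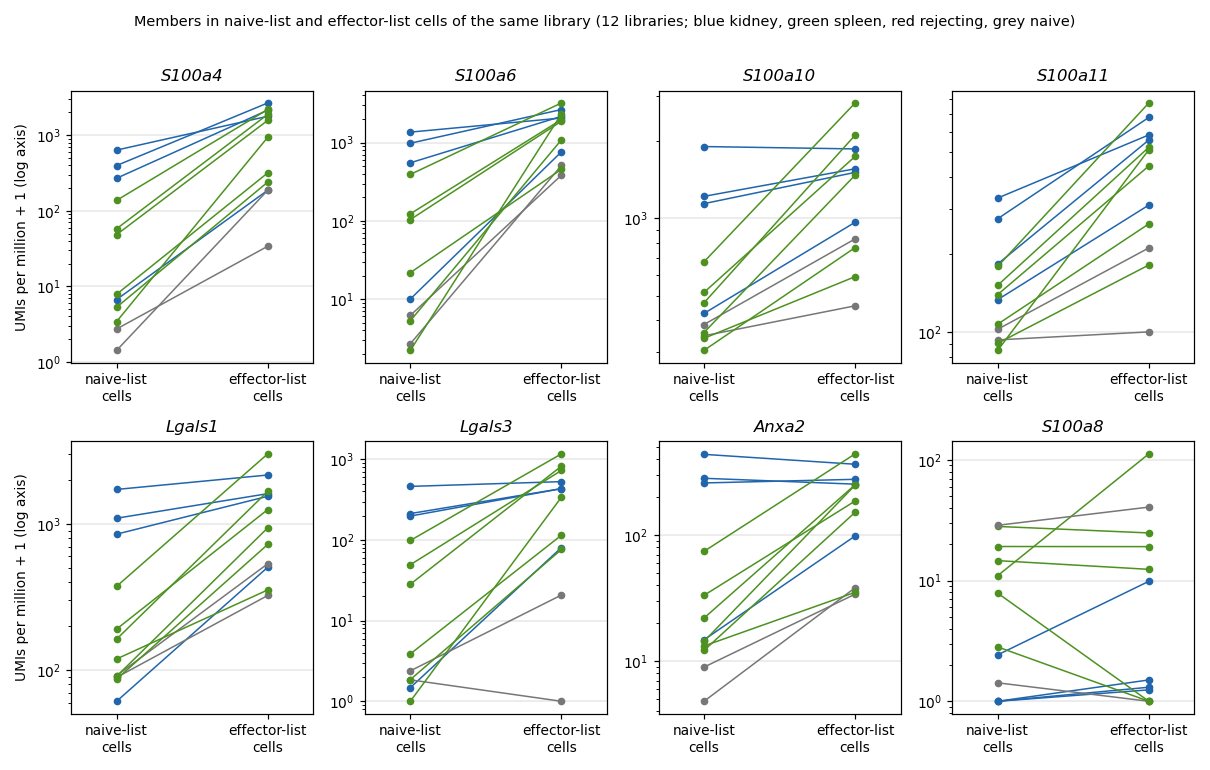
Levels of S100a4, S100a6, S100a10, S100a11, Lgals1, Lgals3, Anxa2 and S100a8 (CPM + 1, log axis) in naive-list and effector-list cells, with a line joining both values of each of the 12 libraries with 20 or more cells of both lists, colored by labelled tissue. Effector-list cells were higher in 12 of 12 libraries for S100a4, S100a6, S100a11 and Lgals1 and in 6 of 12 for S100a8.

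The share of cells with a UMI of S100a4 was lower in spleen than in kidney at both times. With each cell thinned to 1000 UMIs, S100a4 was found in 68.5% ± 4.33 (SD, n = 3) of kidney CD8 cells at 1 week and 73.2% ± 2.74 (n = 5) at 3 weeks, 13.5% ± 3.14 (n = 3) and 2.34% ± 0.834 (n = 5) of spleen cells, 46.7% ± 1.16 (n = 2) in rejecting kidney and 0.867% ± 0.265 (n = 5) in naive spleen. Unthinned, the shares were 82.4%, 87.9%, 18.5%, 4.99%, 69.5% and 1.94%. Lgals1 was found in 69.8% ± 8.41 of kidney cells at 1 week and 26.9% ± 4.24 at 3 weeks (unthinned 89.1% and 45.7%), and Lgals3 in 30.1% ± 2.51 and 14.9% ± 1.70 (52.2% and 29.7%). Thinning left out 28 spleen cells at 1 week, 4 at 3 weeks and none in the kidneys or naive spleens of these groups. B-list cells of naive spleen, which should express little S100a4, carried it in 0.638 to 1.82% of cells at a median depth of 2244 to 2911 UMIs and held 8.64 to 28.1 CPM, and S100a6 at 37.8 to 104 CPM. The naive CD8 libraries, at a median depth of 3730 to 4985 UMIs, lay within those ranges of CPM or below them, so these levels do not separate naive CD8 cells from B-list cells. The S100a6 share given above, in thinned and pooled naive CD8 cells, was 48.7% with an S100a4 UMI and 2.24% without. The 48.7% rests on few cells, as 0.867% of naive cells held an S100a4 UMI after thinning. The part of free RNA in the naive levels was not tested.

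S100a8 and S100a9, the calprotectin genes, were uneven between libraries. They reached 594 and 437 CPM in the smallest rejecting spleen library (56 cells), where 44 cells, 78.6%, had an S100a8 UMI, and 148 and 377 CPM in another, against 12.6 and 16.4 CPM in the third. In accepted kidneys S100a8 stayed at 0.93 CPM or less. In recipient spleens S100a8 was at 21.1, 17.6 and 36.6 CPM at 1 week and 3.39 to 29.5 CPM at 3 weeks, and in 2 of the 1-week libraries 1 cell held many of the UMIs, 44 of 115 of S100a8 and 130 of 214 of S100a9 in the first and 92 of 269 and 111 of 318 in the third. In the first rejecting kidney library 1 cell held 17 of 29 UMIs of S100a9. The pair moved together, with r = 0.97 over the 32 libraries, and 0.97 over the 26 without those of 24 weeks. Its level moved with 9 neutrophil genes (Csf3r, Retnlg, Cxcr2, Mmp9, Ngp, Camp, Ltf, Lcn2, Il1r2), whose summed group means were 97.7 CPM in rejecting spleen (range 8.81 to 209), 18.6 and 9.28 CPM in recipient spleen at 1 and 3 weeks, 2.21 and 1.65 CPM in accepted kidney and 3.67 CPM in naive spleen. In rejecting kidney the sum was 7.18 and 3.83 CPM, above every accepted kidney library of 1 week (at most 3.66 CPM). Of the 9 markers Ngp, Camp and Ltf were at 0 in both these groups and Retnlg in rejecting kidney. The part of carried RNA in the calls of S100a8 and S100a9 was not tested.

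In naive spleen the pair could be set beside the full CD45+ matrix with the same 5 library tags. Its libraries held 298, 18, 158, 17 and 21 neutrophil-list cells, beside S100a8 levels of 25.6, 0.288, 6.0, 0 and 0.535 CPM in the CD8 cells: the pair of libraries with the most neutrophils also carried the most S100a8. The neutrophil-list cells themselves held a mean of 59310 CPM of S100a8. B-list cells carried an S100a8 UMI in 10.1% of cells in the first library, 4.01% in the third and 0.147 to 0.252% in the others, beside 8.55% of CD8 cells in the first. In the 12 libraries with 20 cells or more both with and without an S100a8 or S100a9 UMI, the cells with one held a median of 0.980 times the S100a4 of the others, 0.910 times the S100a6, 1.00 times the S100a10, 0.971 times the S100a11, 1.04 times the Lgals1, 1.02 times the Anxa2 and 0.644 times the Lgals3. The ratio was above 1 in 3 to 7 of the 12 libraries for every other member, Anxa1 (a median of 0) included, and it spread widely, from 0.124 to 2.12 for S100a6.

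**Figure D4:**
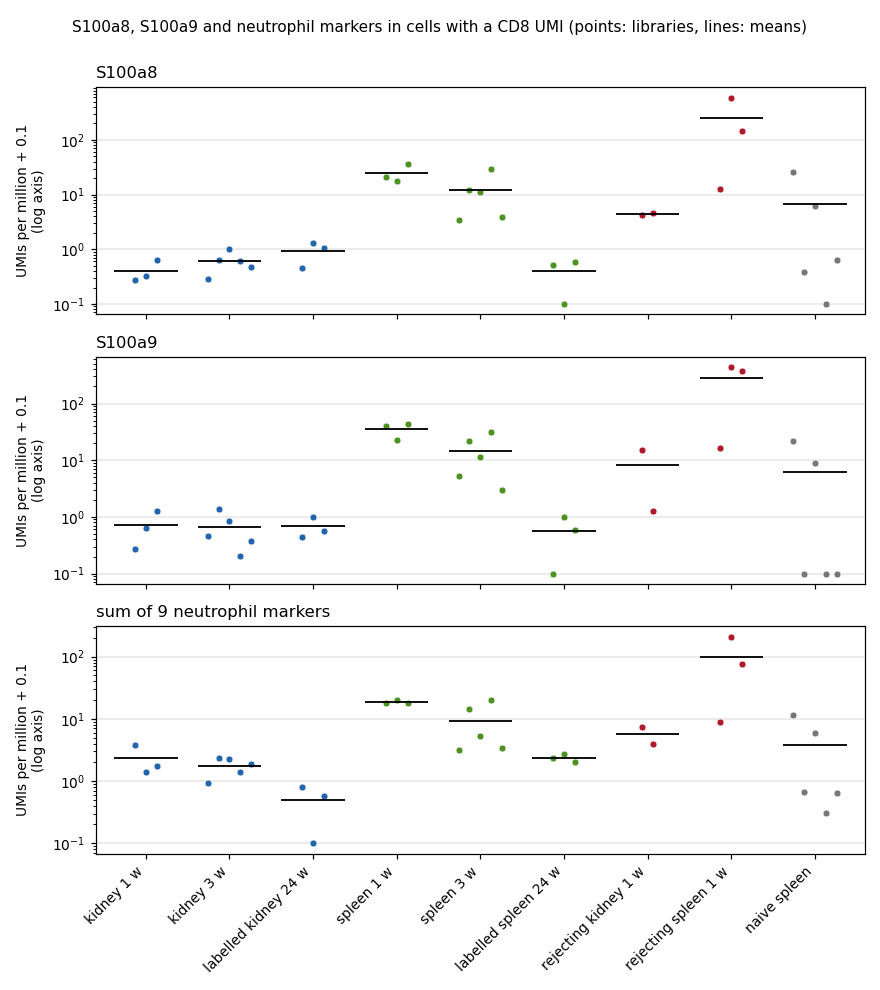
S100a8 and S100a9 levels and the summed level of 9 neutrophil genes (CPM + 0.1, log axis) in the CD8 cells, with a point for each library and a line for the group mean. For S100a8, 2 of the 3 rejecting spleen libraries were highest, at 148 and 594 CPM, and the third was at 12.6 CPM, while accepted kidneys at 1 and 3 weeks held 0.93 CPM or less.

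Monocytes and macrophages express Lgals3 and S100a4 too, and their 9 marker genes summed to 86.9 CPM in CD8 cells of accepted kidney at 1 week, 115 CPM at 3 weeks and 175 CPM in rejecting kidney, against 19.5 and 7.70 CPM in recipient spleen. In the rejecting kidney, which has a full CD45+ matrix, CD8 cells held 1.51 to 2.39% of the Lyz2 level of macrophage-list cells, 1.75 to 3.51% of their S100a8, 4.02 to 4.45% of their Anxa1, 24.4 to 39.8% of their Lgals3 and 151 to 203% of their S100a4. The part of macrophage RNA in these levels was not tested. Without cells carrying Cd4, Lyz2, Cd79a or neutrophil UMIs, the calls of S100a4, S100a6, Lgals1, Lgals3, S100a10, S100a11 and Anxa2 stood in every comparison at 1 and 3 weeks, while in spleen between 1 and 3 weeks those of S100a8 (-0.72) and S100a9 (-0.67) were lost.

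Other genes of the 3 families were counted from a list of 28. Between 1 and 3 weeks in accepted kidney 15 were tested, 7 rose and 4 fell, against 53.6% of all genes called higher and 21.2% lower and a median of 0.41. Lgals4 (log2 2.01), Lgals3bp, which encodes a galectin-3 ligand (1.58), Lgals8 (1.44), Lgalsl (0.81), Anxa7 (0.56), S100pbp (0.46) and Anxa11 (0.31) rose, and Lgals7 (-1.16), Anxa5 (-0.56), S100a1 (-0.54) and S100a13 (-0.36) fell. With TMM factors 4 rose and 6 fell: S100pbp (0.07), Anxa7 (0.17) and Anxa11 (-0.08) lost their calls, and Anxa4 (-0.40) and Anxa6 (-0.57) gained one. Between kidney and spleen at 3 weeks 11 of 13 were higher in kidney, led by Lgalsl (4.09) and Anxa4 (3.33), against 48.6% of all genes, and with TMM factors 9 were higher and 2 lower. Of 14 partners and receptors, 8 were tested in kidney between 1 and 3 weeks: the galectin-binding surface proteins Cd7 (2.12), Ptprc (CD45, 1.08) and Spn (CD43, 0.76), the galectin-3 and galectin-9 receptors Lag3 (0.73) and Havcr2 (0.43), Ahnak, a scaffold of the S100a10 and Anxa2 complex (0.92), and Cd69 (0.92) rose, while Bsg fell by 0.50, all on the log2 scale and against the same 53.6% and 21.2% of all genes. With TMM factors Havcr2 lost its call (0.04), and 6 rose and 1 fell.

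By Pearson's r of log2(CPM + 1) over the 32 libraries, among 2562 genes that averaged 50 CPM or more, the genes most alike to S100a4 were Gzmb (0.97), Gimap4 (0.97) and Prr13 (0.96), and those for S100a6 were Gzmb (0.97), Prr13 (0.97) and Klrc1 (0.96). Lgals1 was most like Hmgb2 (0.96), Hmgn5 (0.96) and Hist1h1e (0.95), chromatin genes, and Lgals3 most like Itgb1 (0.94), Gzmb (0.93) and Ptms (0.92). Anxa2 (Ptms 0.95), S100a11 (Ndfip1 0.97) and S100a10 (Zbtb8os 0.96) had close neighbors too, whereas the best for S100a8 was 0.77 (Rasa3) and for Anxa1 0.79 (Cmpk1). The genes searched did not include the other members, among them S100a9 with r = 0.97 to S100a8. Genes of low level, such as the neutrophil genes, were left out as well, so the S100a8 value holds only for the genes searched. These correlations describe 32 libraries that share tissue and state and carry no test.

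At 24 weeks the values rest wholly on the libraries that went against their labels. Libraries labelled kidney held 26.5, 28.7 and 10.4 CPM of S100a4, 128, 125 and 100 CPM of Lgals1 and 3.84, 9.16 and 2.61 CPM of Lgals3. Those labelled spleen held 1759.5, 1524 and 1646 CPM of S100a4, 445, 519 and 446 CPM of Lgals1 and 113, 98.4 and 119 CPM of Lgals3. As labelled, 7 of 8 members tested were lower in kidney at 24 than at 3 weeks (56.9% of 11534 genes called lower, 71.1% either way). In spleen 7 of 9 were higher (31.1% of 9763 called higher, 58.5% either way) and S100a8 and S100a9 lower (27.4%). The latter pair passed the filter through the 3-week spleens, so its direction was fixed by the filter. Labelled kidney was lower than labelled spleen in 7 of 7 members tested (39.1% of 9840 called lower, 53.8% either way). Of these, Lgals3 passed the filter through the libraries labelled spleen, so its direction was fixed by the filter. The splits of all genes were 1635 higher and 6561 lower in the first of these comparisons and 1443 and 3848 in the last. With TMM factors they were 3368 and 3643, and 2388 and 2586. The libraries labelled spleen overlapped the accepted kidneys of 3 weeks for S100a4, S100a6, S100a10, Lgals1 and Anxa2, and for S100a8 and S100a9, at 1.27 CPM or less. They were higher for S100a11 (517 to 558 CPM against 382 to 401 CPM) and Anxa1 (2.19 to 3.30 CPM against 0.53 to 1.38 CPM) and lower for Lgals3. Those labelled kidney overlapped the 3-week spleens for S100a4, S100a6, Lgals3, Anxa1 and Anxa2. They were higher for S100a10 and S100a11 and lower for Lgals1 (100 to 128 CPM against 161 to 235 CPM), S100a8 and S100a9. Both sets of overlaps were read from the library values without a share over all genes and were not tested.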

How the data were processed

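The authors prepared 10x Chromium 3′ single-cell libraries from viable CD45+ cells of perfused, digested kidneys and mashed spleens, and deposited raw UMI counts per gene and cell as 1 matrix per condition, made with Cell Ranger on mm10 according to the submitters' processing notes (the version is not given in the sources used here). No normalization had been applied. The study clustered integrated cells with Seurat and named clusters by hand from known markers; which of these clusters make up the deposited CD8 matrices is not given in the sources used here, and no doublet step was added. Libraries were read from the barcode tags. Counts of CD8-positive cells (any UMI of Cd8a or Cd8b1) were summed per library and tested with edgeR 4.0.16 (R 4.3.3; quasi-likelihood, library totals, filterByExpr, Benjamini-Hochberg over all genes tested, threshold 0.05), after a test on simulated counts. Only the groups compared entered a fit. At 1 week, deviations of kidney and spleen libraries with the same tag number correlated over genes (r of 0.247, 0.109 and 0.290). For the first of these another number gave a slightly higher r (0.2495). A fit with the number as a block was added. Alternatives were TMM factors, DESeq2 1.42.0, no filter, all cells, cells without marker UMIs, cells without dividing-list UMIs, all 9 groups together and leaving out each library. Shares used cells thinned to 1000 UMIs. Total counts per library set the precision, and intervals cover the spread between libraries. The named genes were the 10 members, a list of 28 relatives, 14 partners, and per member the 3 genes most alike in r. Members and lists were chosen with earlier results of these data known. Promoters came from RefSeq, with entries for 8 of 10 members. Gene coordinates are those of GENCODE M21 on GRCm38.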

Additional observations from a re-analysis of the deposited data

Results flagged for a closer look

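In naive spleen, 1 of 5 libraries stood far from the others in S100a8, at 25.6 CPM against 0 to 6.0 CPM (a gap of 0.766 of the range). It was 1 of 30 sets of libraries examined, and chance alone gives about 1 in 20. The same library held 298 neutrophil-list cells, the most of the 5.

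The change from 1 to 3 weeks differed between kidney and spleen by 3.69 for S100a4, 2.92 for S100a6, 3.40 for Lgals3 and 0.72 for S100a11 on the log2 scale, each by the test of the difference itself.

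At 24 weeks the difference of libraries labelled kidney minus libraries labelled spleen had the opposite sign to 3 weeks in every library of each group, at -6.28 for S100a4, -4.63 for S100a6, -0.83 for S100a10, -1.79 for S100a11, -1.999 for Lgals1, -4.44 for Lgals3 and -2.24 for Anxa2 (log2). The difference between the times was not tested, and it rests on libraries that go against their labels. For Lgals3 the direction at 24 weeks was fixed by the filter on low counts.

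Rejecting spleen entered no comparison, and its median levels of S100a8, 148 CPM, and S100a9, 377 CPM, stood above the highest naive libraries, at 25.6 and 21.7 CPM.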

How the results depend on the processing

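The numbers in the library tags of kidney and spleen are not stated to mark the same mouse. A replicate block on that number, chosen after the data were seen, changed no member call between kidney and spleen at 1, 3 or 24 weeks. For the difference in change from 1 to 3 weeks it gave 7 members called in place of 4, adding S100a8 (1.79), Anxa2 (0.58) and, in the opposite direction, Lgals1 (-0.46). The share of all genes called under the block is not given here. Deviations of same-numbered libraries correlated at 0.079 to 0.485 at 3 weeks and -0.057 to 0.266 at 24 weeks. In 2 of 5 and 1 of 3 pairs the kidney correlated best with its own number. Whether same-numbered libraries share a mouse was not tested. Of 77 member calls, 66 kept their direction and call under every alternative run. The 77 include calls that rest on libraries of 24 weeks, none of which were lost. These were 7 in kidney at 24 against 3 weeks, 7 higher and 2 lower in spleen over that interval, and 7 between tissues. The 77 also include the calls whose direction was fixed by the filter. Between 1 and 3 weeks in kidney, S100a6 reversed with TMM factors (-0.12) and DESeq2 (-0.13), and S100a4 ranged from -0.19 to 0.12 over fits without 1 library. Anxa1 ranged from -0.29 to 0.48 in the labelled kidney at 24 against 3 weeks and from -0.36 to 0.050 between kidney and spleen at 1 week over fits without 1 library, where cells without marker UMIs gave 0.14, and all cells of the matrices gave 2.42 and -0.76, both called. In rejecting against accepted kidney, fits without 1 library gave 4 to 8 members called, with Lgals1 from -1.42 to 0.24 and Anxa2 from -0.77 to 0.15; the 4 came without the second or the third accepted library. The difference in change of S100a10 was -0.018 with DESeq2, -0.31 without cells holding any dividing-list UMI, and -0.012 to 0.38 over fits without 1 library. Leaving out the third spleen library of 1 week moved S100a8 in spleen from -1.17 to -0.78, no longer called. Share values moved with the thinning in 144 of 180 cases. The cause was not tested. Depth limits Anxa1 in all groups and the rejecting spleen, whose smallest library held 153266 UMIs.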

Other observations

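Rejecting spleen libraries differed widely from each other. S100a6 was at 227, 966 and 386 CPM, S100a4 at 90.6, 339 and 221 CPM and Lgals3 at 41.5, 130.5 and 71.1 CPM, and the library with 56 CD8 cells was the highest in each. Lgals1, at 347, 352 and 449 CPM, spread far less. All 3 libraries lay above every naive spleen library for S100a4, S100a6, S100a11, Lgals1, Lgals3 and Anxa2, but not for S100a10. For S100a11 the margin was small, 114.5 CPM or more against 111.3 CPM or less. This was read from the library values without a share over all genes and was not tested. In the rejecting spleens the monocyte and macrophage list stood at 5.03, 97.9 and 80.2 CPM, beside 2.02 to 12.2 CPM in naive spleen. For that list 1 of the 3 libraries lay within the naive range. The B cell list stood at 65.2 to 272 CPM, beside 27.9 to 55.6 CPM in naive spleen, so for it no library lay within the naive range.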
